A study of Canis lupus familiaris with 15 samples.

Results

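The mitochondrial ribosome and the respiratory chain are built largely from proteins that nuclear genes encode, and 76 such genes were found among the 7698 genes listed in 3 tables of gene expression from canine osteosarcoma cell lines. Members were taken by symbol: proteins of the mitochondrial ribosome (MRPL and MRPS), complex I (NDUF), complex II (SDHA to SDHD), complex III (UQCR and CYC1), complex IV (COX followed by a number) and ATP synthase (ATP5). By function they comprise 31 mitoribosomal proteins (18 of the large and 13 of the small subunit), 30 subunits of complexes I to V, 12 assembly factors and 3 other proteins that carry such a symbol without being subunits. The tables for D17, for HMPOS, and for HMPOS against POS held 31, 1 and 62 of them, of 4412, 1189 and 5746 listed genes. Of the 76, 58 were listed in 1 table, 18 in 2 and 0 in all 3, where 59.0%, 34.5% and 6.44% of the 7698 genes were.

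RNA sequencing covered 15 libraries in 5 groups of 3, namely D17 extravasation-positive, D17 parental, HMPOS extravasation-positive, HMPOS parental and POS parental cells. D17, POS and HMPOS are established lines of canine osteosarcoma, a malignant bone tumour, and HMPOS is a highly metastatic line derived from POS. The extravasation-positive sublines were grown out in culture from clusters of cells that had left the vessels of zebrafish embryos, whereas parental cells had not passed through a fish, so passage through the host and later outgrowth cannot be told apart from selection for extravasation. The extravasated clusters were isolated as 3 biological replicates, while for the parental groups the sample records do not state whether the 3 libraries came from separate cultures.

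Each group has a single value per gene in FPKM, a level scaled by transcript length and by mapped fragments, which pools its libraries. Depth and the spread between libraries are therefore unknown, no difference below has a replicate check, and no test was run. Only genes that the authors' own test called significant are listed, so small ratios are missing and a gene that is not listed has no value here. Log2 ratios are extravasation-positive over parental for D17 and HMPOS, and parental HMPOS over parental POS. These directions rest on column names, where norm was read as parental because POS, with parental libraries alone, carries that name. Under this reading 2390 listed genes were higher and 2022 lower in D17, and 797 higher and 392 lower in HMPOS. The article reports the reverse balance, with up and down nearly exchanged and more genes down than up in extravasated cells of both lines. This conflict could not be settled here. If the article's direction holds, every D17 and HMPOS direction below is reversed. If the names of the HMPOS groups are exchanged, the HMPOS cells set against POS below would be extravasation-positive and not parental.

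Mitochondrial ribosomes translate the few proteins encoded by mitochondrial DNA, all of them core parts of complexes I, III and IV and of ATP synthase. These join many more subunits that are made in the cytosol and imported, and assembly factors help to put each complex together. The chain passes electrons from NADH and succinate to oxygen and pumps protons, and ATP synthase (complex V) uses the proton gradient to make ATP. Of the 13 protein-coding genes of mitochondrial DNA, 0 were listed, so all values below concern nuclear genes.

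The 31 D17 members had levels from 5.05 to 1124 FPKM, and 4.14 FPKM, that of NDUFAF6 in POS, was the lowest of any member in the 3 tables. Of the 76 symbols, 72 were found in the RefSeq table for the dog (assembly UU_Cfam_GSD_1.0), which holds 168 symbols that fit the same rule. MRPS6, ATP5S, COX16 and ATP5PB were not found there. The annotated span of 6 members overlaps that of another listed gene, which makes their values less certain: NDUFAF2, COX15, NDUFAF5, CYC1, SDHA and MRPL47. NDUFB6 lies on another chromosome in RefSeq than in the tables, and its annotated span is 387 bases. Markers of the bone-forming lineage were listed in each table, 4 of 9 in D17 and 5 of 9 each in HMPOS and in HMPOS against POS. They were higher in extravasation-positive cells of D17 (4 of 4) and of HMPOS (4 of 5, IBSP being lower), where 54.2% and 67.0% of all listed genes were. In HMPOS against POS 4 of 5 were lower, beside 52.3% of all listed genes, and SP7 was higher (54.5 against 41.7 FPKM). Osteocalcin (BGLAP) was at 27.3 FPKM in HMPOS against 676 FPKM in POS. Of the epithelial markers CDH1 was higher in extravasation-positive cells of D17 (1.47 against 0.0783 FPKM) and of HMPOS (3.04 against 1.49 FPKM) and lower in HMPOS than in POS (1.49 against 4.30 FPKM), and EPCAM was higher in D17 (1.72 against 0.431 FPKM). Of the endothelial markers KDR was listed, lower in HMPOS than in POS (0.146 against 1.73 FPKM), and 0 of 5 leukocyte markers were listed. The part of these differences in the mitochondrial values was not tested, and in bulk RNA fewer cells that express a gene cannot be told apart from less RNA per cell.

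In D17, proteins of the mitochondrial ribosome were lower in extravasation-positive than in parental cells, whereas most listed subunits of the respiratory chain were higher. Of the 16 listed mitoribosomal genes 15 were lower and 1 was higher, with a median log2 ratio of -0.48. Of the 8 listed chain subunits 7 were higher and 1 was lower, with a median of 0.35. Among all 4412 listed genes 54.2% were higher and 45.8% lower, with a median of 0.39. Of all 31 members 10 were higher (32.3%) and 21 were lower. The differences were small, and 1 member was past 2-fold, where 26.8% of all listed genes were. When the median of all listed genes, a shift of 0.39, was subtracted, all 16 mitoribosomal genes lay below it, MRPS18B included, and the chain subunits turned from 7 higher and 1 lower to 3 above and 5 below, with a median of -0.034.

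**Figure D1:**
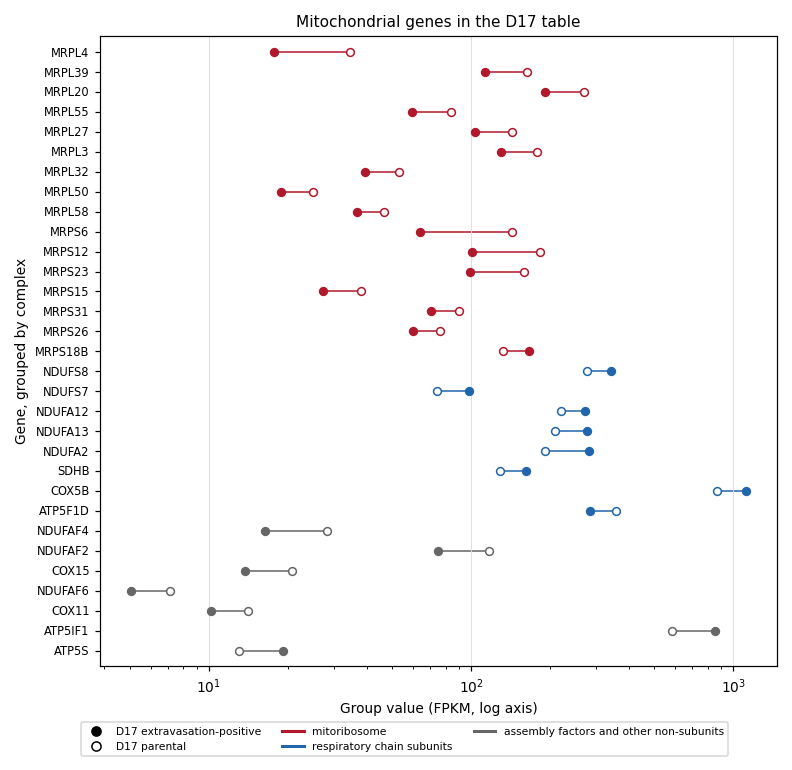
FPKM (log axis) of the 31 members listed for D17, one row per gene, with filled points for extravasation-positive and open points for parental cells, each the pooled value of 3 libraries. The open point lies to the right for 15 of the 16 mitoribosomal genes (red) and to the left for 7 of the 8 chain subunits (blue).

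On the small subunit of the mitoribosome 6 of 7 listed genes were lower. MRPS6 (chr31:29508316-29579317, CanFam3.1), a small subunit protein, was at 64.1 FPKM in D17 extravasation-positive and 143 FPKM in parental cells, a level 2.23-fold lower. MRPS12, a protein of the decoding centre, was at 101 against 184 FPKM (log2 ratio -0.86), and MRPS23 at 99.4 against 159 FPKM (-0.68). MRPS18B was the 1 mitoribosomal gene with the higher value in extravasation-positive cells, at 167 against 133 FPKM (0.33). All 9 listed proteins of the large subunit were lower. MRPL4 led them at 17.7 against 34.6 FPKM (-0.97), followed by MRPL39 at 113 against 163 FPKM (-0.53) and MRPL20 at 191 against 271 FPKM (-0.50). The other 6 had log2 ratios from -0.49 (MRPL55) to -0.35 (MRPL58, which releases stalled chains from the ribosome).

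Complex I, the NADH dehydrogenase and entry point of the chain, was represented by 5 subunits, all of them higher in D17 extravasation-positive cells. NDUFS7 and NDUFS8, core subunits that hold iron-sulfur clusters, were at 98.4 against 74.0 FPKM (0.41) and at 342 against 278 FPKM (0.30). The accessory subunit NDUFA2 had the largest ratio, at 282 against 192 FPKM (0.55). NDUFA13 was at 277 against 209 FPKM (0.40) and NDUFA12 at 273 against 219.8 FPKM (0.32). The 5 genes thus had ratios within a narrow range, on either side of the median of all listed genes.

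The remaining chain complexes had 1 listed gene each or none. SDHB, the iron-sulfur subunit of complex II (succinate dehydrogenase), was at 163 FPKM in extravasation-positive and 129 FPKM in parental cells (0.34). COX5B of complex IV (cytochrome c oxidase) had the highest level of any member, 1124 against 872 FPKM (0.37). ATP5F1D, the delta subunit of ATP synthase, was the 1 chain subunit with the lower value, at 285 against 357 FPKM (-0.32). Of complex III 0 genes were listed. ATP5IF1, which inhibits the backward reaction of ATP synthase and is no subunit of it, was at 849.8 against 587 FPKM (0.53), and ATP5S, named for its link to ATP synthase, at 19.2 against 13.0 FPKM (0.56).

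Assembly factors were lower, as the mitoribosomal genes were: 5 of 5, with a median of -0.59, beside 45.8% of all listed genes. NDUFAF4 was at 16.3 against 28.2 FPKM (-0.79), NDUFAF2 at 74.9 against 117 FPKM (-0.64) and NDUFAF6 at 5.05 against 7.10 FPKM (-0.49), all 3 acting on complex I. Of the factors for cytochrome c oxidase, COX15, which makes heme A, was at 13.8 against 20.7 FPKM (-0.59), and COX11, a copper chaperone, at 10.2 against 14.1 FPKM (-0.47). The spans of NDUFAF2 and COX15 overlap those of ERCC8 and CUTC.

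**Figure D2:**
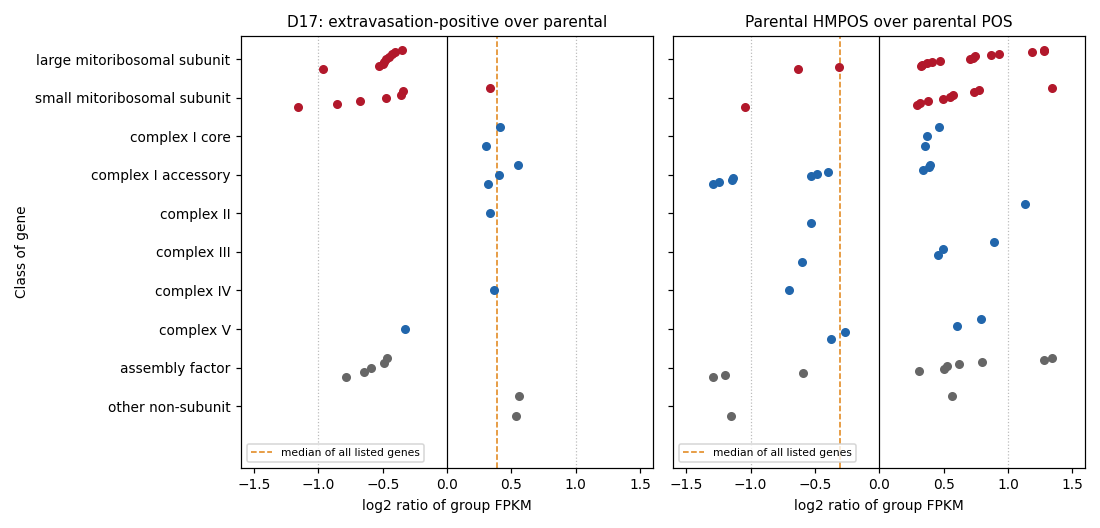
Log2 ratio of group FPKM for the listed members (in HMPOS against POS 61 of 62) by class of gene, in D17 (left, extravasation-positive over parental) and in parental HMPOS over parental POS (right); the dashed orange lines mark the median of all listed genes, 0.39 and -0.31, and the dotted lines mark 2-fold. Both mitoribosomal subunits lie mainly on the left in D17 and mainly on the right in HMPOS against POS, while chain subunits lie on both sides in HMPOS against POS.

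Other genes of mitochondrial translation, outside the symbol rule, were also mostly lower in D17 extravasation-positive cells, where 45.8% of all listed genes were. Translation factors were lower in 5 of 5 listed genes of a list of 19 (median -0.47), among them the elongation factors GUF1 (-0.80) and GFM1 (-0.64) and the mitoribosome protein GADD45GIP1 (-0.47). Genes for ribosome assembly and RNA processing were lower in 7 of 7 (median -0.57), led by ELAC2, which trims the ends of transfer RNAs, at 9.35 against 19.2 FPKM (-1.04), NOA1 (-1.03) and MRM1 (-0.71). Of the mitochondrial aminoacyl-tRNA synthetases, which charge transfer RNAs, 4 of 6 were lower (MARS2 -0.66 and VARS2 -0.62) and 2 were higher (WARS2 0.47).

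Mitochondrial DNA maintenance was lower in 3 of 3 listed genes, with TFAM, the packaging and transcription factor of mitochondrial DNA, at 12.0 against 20.8 FPKM (-0.80), TWNK at -0.59 and SSBP1 at -0.50. The listed regulators of mitochondrial content, MYC (35.1 against 45.9 FPKM, -0.39), PPRC1 (-0.48) and PRKAA1 (-0.48), were lower as well. Protein import was lower in 6 of 7 genes. Of all listed genes 45.8% were lower. Here the import pore TOMM40 was at 126 against 288 FPKM (-1.20), the chaperonin HSPD1 at 617 against 1037 FPKM (-0.75) and TIMM17A at -0.51.

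The lists nearer to respiration had genes on both sides in D17, where 45.8% of all listed genes were lower. Assembly factors outside the symbol rule were lower in 6 of 10, with COA6 at 9.27 against 21.1 FPKM (-1.19), TIMMDC1 at -0.89 and NUBPL at 0.74. Of the tricarboxylic acid cycle 4 of 5 were lower (IDH3A -0.63) and IDH2 was higher (0.35). Among electron carriers 3 of 5 were lower, led by PDSS1, which starts the side chain of coenzyme Q, at 12.3 against 30.2 FPKM (-1.30), then COQ2 (-0.57) and CYCS, cytochrome c itself, at 389 against 539 FPKM (-0.47).

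Other large complexes of the cell gave a scale for these counts. Cytosolic ribosomal proteins were higher in 27 of 29 listed genes (median 0.41), and subunits of the vacuolar ATPase were higher in 7 of 8 (median 0.52). Proteasome subunits were lower in 12 of 14 (median -0.47), the 2 exceptions being the immunoproteasome subunits PSMB8 and PSMB9. Among all listed genes 54.2% were higher and 45.8% lower, with a median of 0.39. In D17, cytosolic and mitochondrial ribosomal proteins thus mostly had ratios of opposite sign, but the cytosolic median lay close to that of all listed genes.

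In HMPOS extravasation-positive against parental cells, 1 member was listed. NDUFAF5 (chr24:8833475-8939020, CanFam3.1), an assembly factor of complex I, was at 8.58 FPKM in extravasation-positive and 16.5 FPKM in parental cells, a level 1.93-fold lower (log2 ratio -0.95). Its span overlaps that of ESF1, and 33.0% of all 1189 listed genes were lower, 67.0% were higher and 25.3% were past 2-fold. Of the mitoribosome and of complexes I to V 0 genes were listed, which leaves their ratios in HMPOS unknown.

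Of the related lists, 7 had 1 listed gene each in HMPOS. GUF1 (8.90 against 12.7 FPKM, -0.52), the isoleucyl-tRNA synthetase IARS2 (-0.47), FASTKD5 (-0.46), RRM2B (-0.48) and SUCLA2 (-0.43) were lower in extravasation-positive cells. The complex IV factor CMC1 (10.8 against 6.20 FPKM, 0.80) and the electron transfer flavoprotein subunit ETFB (0.58) were higher. Genes of protein import, the regulators and the genes encoded by mitochondrial DNA were not listed.

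Between the parental lines, the mitoribosome was higher in HMPOS than in POS, and the chain subunits were divided. Of the 25 listed mitoribosomal genes 22 were higher and 3 were lower, with a median log2 ratio of 0.55. Of the 25 listed chain subunits 12 were higher and 13 were lower (median -0.27). Over all 62 members 42 were higher (67.7%) and 20 were lower, where 47.7% of the 5746 listed genes were higher and 52.3% lower. The median was 0.39 for members and -0.31 for all listed genes. Past 2-fold were 15 members, 7 of them higher and 8 lower, which is 24.2% of members beside 27.6% of all listed genes. After the median of all listed genes was subtracted, 22 mitoribosomal genes lay above it and 3 below, as before, and of the chain subunits ATP5MC1 changed side, giving 13 above and 12 below with a median of 0.038.

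**Figure D3:**
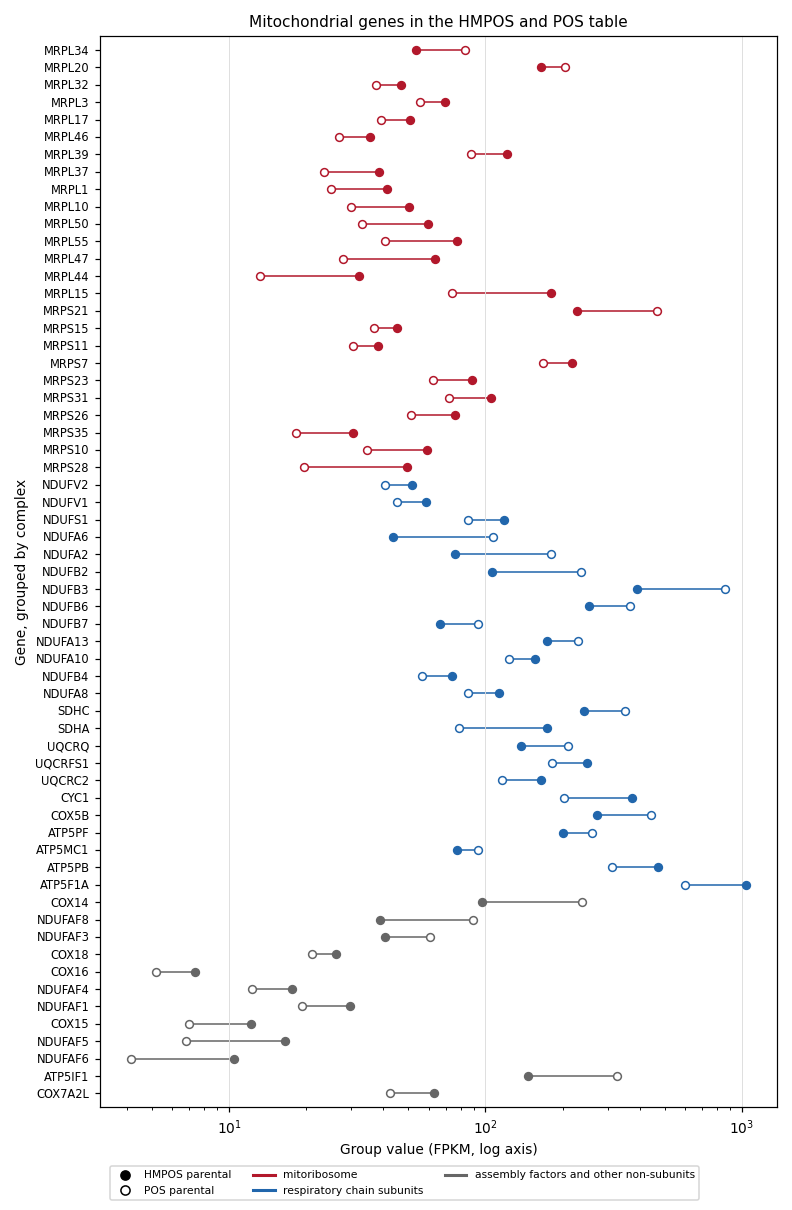
FPKM (log axis) of 61 of the 62 members listed for HMPOS against POS, one row per gene, with filled points for parental HMPOS and open points for parental POS, each the pooled value of 3 libraries. The filled point lies to the right for 22 of the 25 mitoribosomal genes (red) and for 12 of the 24 chain subunits drawn (blue).

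On the large subunit of the mitoribosome 13 of 15 genes were higher in HMPOS, with a median of 0.71. MRPL15 (chr29:5704653-5711382) was at 179.7 FPKM in HMPOS against 74.1 FPKM in POS, 2.42-fold higher. MRPL44, which sits near the exit of the nascent chain, was at 32.1 against 13.2 FPKM (1.28), and MRPL47 at 63.4 against 27.9 FPKM (1.19), with a span that overlaps ACTL6A. The 2 exceptions were MRPL34, at 53.7 against 83.3 FPKM (-0.63), and MRPL20, at 164 against 204 FPKM (-0.31). The small subunit followed with 9 of 10 higher and a median of 0.52. MRPS28 (chr29:27312980-27526145) had the largest ratio of any member, 49.6 against 19.6 FPKM, a level 2.53-fold higher. MRPS10 was at 59.2 against 34.6 FPKM (0.77) and MRPS35 at 30.5 against 18.3 FPKM (0.74). MRPS21 alone was lower, at 227 against 467 FPKM (-1.04).

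The listed genes of complex I lay on both sides, with core subunits mostly higher and accessory subunits mostly lower in HMPOS. Of the core subunits, which carry out the electron transfer, 3 of 4 were higher in HMPOS: NDUFS1 at 119 against 85.8 FPKM (0.47), NDUFV1 at 58.5 against 45.2 FPKM (0.37) and NDUFV2 at 51.8 against 40.4 FPKM (0.36). Of the accessory subunits 7 of 10 were lower, with a median of -0.51, and 4 of these were past 2-fold. Among all listed genes 47.7% were higher, 52.3% were lower and 27.6% were past 2-fold. The counts for complex I are small.

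The lowest accessory subunits of complex I differed by similar amounts at very different levels. NDUFA6 was at 43.7 FPKM in HMPOS against 107 FPKM in POS (-1.29), and NDUFA2 at 76.0 against 179.7 FPKM (-1.24). NDUFB2 was at 107 against 235 FPKM (-1.14), and NDUFB3 at 391 against 860.5 FPKM (-1.14). NDUFB6, NDUFB7 and NDUFA13 had ratios of -0.53, -0.49 and -0.40. The 3 higher accessory subunits were NDUFA8 (0.39), NDUFB4 (0.39) and NDUFA10 (0.34), all with smaller ratios than the 4 lowest.

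Complex II had 1 gene on each side. SDHA, the flavoprotein that oxidises succinate, was at 174 FPKM in HMPOS against 79.2 FPKM in POS, 2.20-fold higher, with a span that overlaps CCDC127. SDHC, one of its membrane anchors, was at 242 against 349 FPKM (-0.53). Proteins of a single complex therefore had ratios of opposite sign. In complex III (the cytochrome bc1 complex) 3 of 4 were higher: CYC1, which is cytochrome c1, at 374 against 202 FPKM (0.89), the core protein UQCRC2 at 164 against 116 FPKM (0.50) and the Rieske iron-sulfur protein UQCRFS1 at 249 against 181 FPKM (0.46). The span given for CYC1 is 284023 bases long and overlaps MROH1. The small subunit UQCRQ was lower at 138 against 209 FPKM (-0.60).

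COX5B was the 1 subunit of complex IV listed, at 273 FPKM in HMPOS against 442 FPKM in POS (-0.70). Of ATP synthase, ATP5F1A, the alpha subunit of the catalytic head, was at 1042 against 602 FPKM (0.79), and ATP5PB, part of the outer stalk, at 473 against 311 FPKM (0.60). ATP5PF, another stalk protein, was lower at 201 against 259.7 FPKM (-0.37), as was ATP5MC1, a gene for the ring in the membrane, at 77.5 against 93.4 FPKM (-0.27). Complex V was thus split as complexes II and III were.

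Assembly factors were higher in HMPOS in 7 of 10, with a median of 0.51, beside 47.7% of all listed genes. NDUFAF6 was at 10.5 against 4.14 FPKM (1.34), NDUFAF5 at 16.5 against 6.79 FPKM (1.28) and COX15 at 12.1 against 6.97 FPKM (0.80). COX14 (chr27:4609390-4609558) was lower at 96.7 against 237 FPKM (-1.30), on a span of 168 bases, the shortest of any member. NDUFAF8 was at 38.8 against 89.1 FPKM (-1.20) and NDUFAF3 at 40.4 against 61.0 FPKM (-0.59). Of the non-subunits, ATP5IF1 was lower at 147 against 326 FPKM (-1.15), and COX7A2L, a factor that joins complexes III and IV in supercomplexes, was higher at 62.9 against 42.5 FPKM (0.57).

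The lists around mitochondrial gene expression were mostly higher in HMPOS, where 47.7% of all listed genes were. Ribosome assembly and RNA processing were higher in 13 of 13 listed genes of a list of 23 (median 0.67), led by FASTKD3 at 21.4 against 8.58 FPKM (1.32), MRM1 (1.05) and TFB1M (0.80). Translation factors were higher in 7 of 8 (median 0.46), with the membrane insertase OXA1L at 64.2 against 31.6 FPKM (1.02) and GFM1 at 124 against 69.5 FPKM (0.83). CHCHD1, which belongs to the small subunit of the mitoribosome though its symbol does not say so, was lower at 46.1 against 99.0 FPKM (-1.10). Of the synthetases 3 of 4 were higher (FARS2 0.59 and AARS2 0.48), and of mitochondrial DNA maintenance 4 of 5 (TFB2M 0.77 and TEFM 0.73), with thymidine kinase TK2 lower (-1.18).

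Regulators of mitochondrial content were divided, 4 higher and 3 lower, where 47.7% of all listed genes were higher. MYC was at 53.7 FPKM in HMPOS against 38.3 FPKM in POS (0.49), PPARGC1B, a coactivator of mitochondrial genes, at 1.96 against 2.75 FPKM (-0.49), and ESRRG at 1.40 against 2.30 FPKM (-0.71). Protein import was higher in 14 of 17 (PMPCB 0.85), the lower genes including TIMM8B (-0.92) and TOMM40L (-0.88). The tricarboxylic acid cycle was higher in 7 of 8, with IDH2 at 179.9 against 87.9 FPKM (1.03), DLST at 0.89 and DLD at 0.65. Of the electron carriers 7 of 9 were higher, COQ6 (0.84) and CYCS (209 against 122 FPKM, 0.78) among them, while ETFB was lower (-0.94). Assembly factors outside the symbol rule were higher in 12 of 15, TMEM70, a factor for ATP synthase, at 129 against 47.8 FPKM (1.43), with CMC1 (-1.51) and UQCC3 (-1.34) lower.

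Proteasome subunits were higher in HMPOS in 19 of 21 listed genes (median 0.47), vacuolar ATPase subunits in 5 of 6 (median 0.61) and cytosolic ribosomal proteins in 15 of 20 (median 0.34). The mitoribosome had a like share of higher genes. The chain subunits, with 12 of 25, had a smaller one, near the 47.7% of all listed genes.

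Position on the chromosome went along with the ratio between HMPOS and POS. Of the 92 genes listed on chromosome 29, 89 were higher in HMPOS (96.7%, median log2 ratio 1.05), the highest median of the 37 chromosomes with at least 50 listed genes. Its 3 members, MRPL15, MRPS28 and NDUFAF6, were all higher and past 2-fold. Chromosome 34 came next with 86 of 96 higher (89.6%, median 0.97), and carries SDHA and MRPL47. Of the 7 members higher by over 2-fold, 5 lay on these chromosomes. At the other end, 1 of 74 genes on chromosome 38 was higher (median -0.79), and SDHC there was lower. COX5B and NDUFA6 on chromosome 10, NDUFB2 on chromosome 16, ATP5IF1 and NDUFA2 on chromosome 2 and 4 members on chromosome 20 were likewise lower on chromosomes with negative medians. Other members went against their chromosome. MRPL44, past 2-fold at 1.28 on chromosome 37 (median -0.36), UQCRFS1 on chromosome 1 and MRPL3 on chromosome 23 were higher despite negative medians. NDUFAF8 on chromosome 9 and ATP5PF on chromosome 31 were lower despite positive ones.

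**Figure D4:**
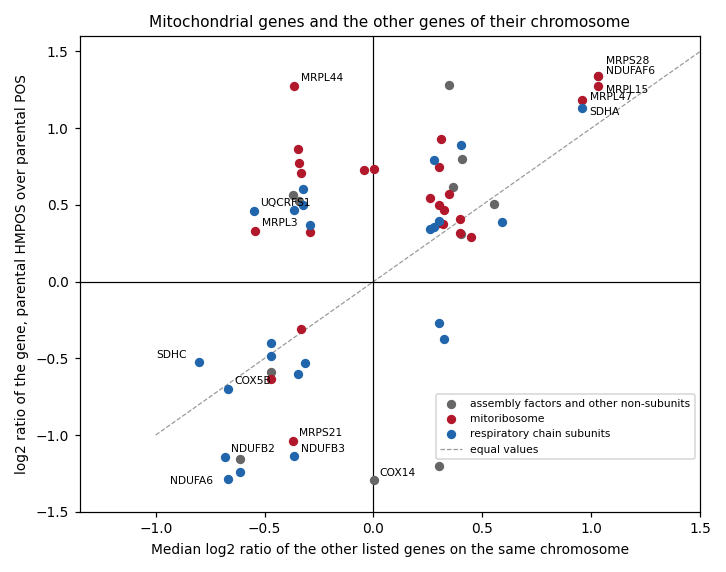
Log2 ratio of 61 of the 62 members between parental HMPOS and parental POS (vertical axis) against the median log2 ratio of the other genes listed on its chromosome (horizontal axis); the dashed line marks equal values. In 43 of the 61 members drawn both values have the same sign, and the members of chromosomes 29 and 34 lie at the upper right.

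Of the 62 members 44 had the sign of their chromosome's median (71.0%), where 65.8% of all listed genes did. Spearman's rho with that median was 0.57 over the 62 members and 0.36 over all listed genes, points that share their libraries and their neighbours. By part, rho was 0.67 over the 25 chain subunits, 0.29 over the 25 mitoribosomal genes and 0.54 over the 12 assembly factors and other non-subunits. Measured from the median of their own chromosome, 21 of 25 mitoribosomal genes were above it (median difference 0.24), 20 of them among the 22 that were higher in HMPOS, and 14 of 25 chain subunits were above it (0.08). Without chromosomes 29 and 34, 37 members were higher in HMPOS, the median was 0.37 and 10 were past 2-fold. In D17, 12 of 31 members (38.7%) had the sign of their chromosome's median, where 55.7% of all listed genes did. Of the 16 mitoribosomal genes 0 were above it (median difference -0.88). Of these, 15 lay on chromosomes with a median above 0, where a gene that was lower fell below the median in any case. Copy number was not analysed here.

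Short genes were mostly lower in HMPOS than in POS, among members as among all listed genes, whereas longer members were mostly higher. Of the 19 members with an annotated span under 5 kb 6 were higher (31.6%, median -0.49), and of the 43 longer ones 36 were (83.7%, median 0.50). Over all listed genes the shares were 38.2% of 689 (median -0.54) and 49.0% of 5057 (median -0.27). The rank correlation of the ratio with the span was 0.52 over the 62 members and 0.03 over all listed genes, and with the level in FPKM -0.46 and 0.19. In D17 the members had the opposite signs, -0.36 with span and 0.39 with level (n = 31), beside -0.04 and -0.25 over all listed genes. The span covers exons and introns together and is no transcript length. The part of gene length or level in these ratios was not tested.

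Members listed both for D17 and for HMPOS against POS, comparisons that share no group, had mostly opposite directions. There were 17 such genes, 54.8% of the D17 members and 27.4% of those of HMPOS against POS. In 16 of the 17 (94.1%) the directions were opposite, where they were in 77.9% of the 2623 genes listed in both tables. Lower in D17 extravasation-positive cells and higher in HMPOS were 9 mitoribosomal genes (MRPL3, MRPL32, MRPL39, MRPL50, MRPL55, MRPS15, MRPS23, MRPS26 and MRPS31) and the assembly factors NDUFAF4, NDUFAF6 and COX15. Higher in D17 and lower in HMPOS were NDUFA2, NDUFA13, COX5B and ATP5IF1. MRPL20 was lower in both, at -0.50 and -0.31.

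**Figure D5:**
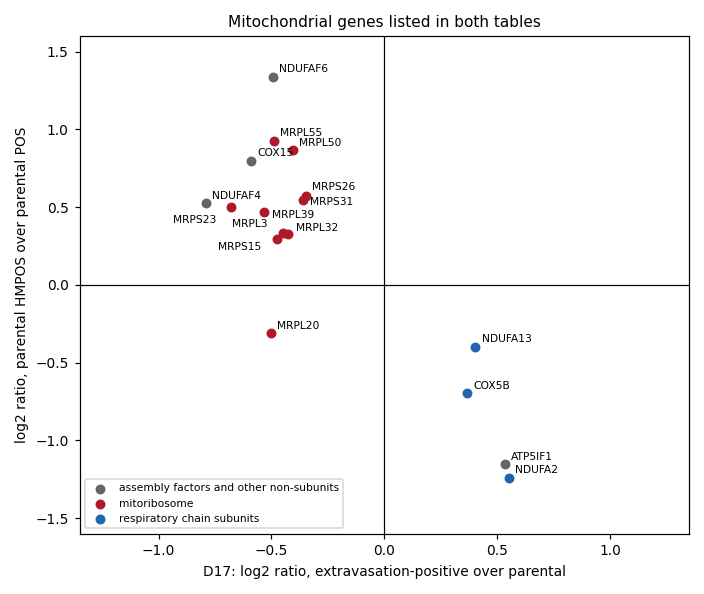
Log2 ratios of the 17 members listed in both tables, with D17 (extravasation-positive over parental) on the horizontal axis and parental HMPOS over parental POS on the vertical axis. The upper left part holds 12 genes and the lower right part 4, with MRPL20 alone at the lower left.

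The parental levels behind these genes can be set side by side. NDUFA2 was at 192 FPKM in D17 parental, 76.0 FPKM in HMPOS parental and 179.7 FPKM in POS parental cells, and at 282 FPKM in D17 extravasation-positive cells. ATP5IF1 was at 587, 147 and 326 FPKM in the same 3 parental groups and at 849.8 FPKM in D17 extravasation-positive cells. MRPL50 ran the other way, with 18.9 FPKM in D17 extravasation-positive, 25.0 FPKM in D17 parental, 60.0 FPKM in HMPOS against 32.9 FPKM in POS cells. The D17 values and those of the other lines come from separate tables that may have been scaled separately. NDUFAF5, the 1 member of the HMPOS table, was at 8.58 FPKM in HMPOS extravasation-positive, 16.5 FPKM in HMPOS parental and 6.79 FPKM in POS parental cells, and both tables draw on the same HMPOS parental libraries.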

How the data were processed

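RNA of 15 libraries was sequenced. The sample records name poly(A) selection, a strand-keeping NEBNext kit, Trimmomatic 0.38, TopHat2, Cufflinks, Cuffdiff and the CanFam3.1 genome, whereas the article names a TruSeq kit, STAR, voom and limma. The deposited tables have Cuffdiff columns. In them the authors gave 1 FPKM per group and gene, pooled over 3 libraries, so depth and its precision are unknown. The tables also hold the authors' fold changes, test statistics, p-values and q-values, which were not used, and every listed gene is marked significant. Columns with values of single libraries numbered 0.

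Groups were taken from the sample titles and columns were mapped by name. Log2 ratios were recomputed from the FPKM without a pseudocount. Members were counted as higher or lower and past 2-fold, beside all listed genes, and no test was run. Members, the 10 related lists and the 3 comparison lists were chosen with earlier results of these data known. Named genes were members past 2-fold, the 3 largest ratios of each direction per class, the 3 largest per list, and PPARGC1A, PPARGC1B, NRF1, TFAM and MYC where listed. Other named members, and the views by core subunit, chromosome, span and shared listing, were chosen after the values were seen. The single values of 1 member (counted but not drawn) and of 2 genes of the related lists are not reported here. Genes with 0 FPKM in a group have no ratio and stayed out of rank correlations. Coordinates are those of the tables, which do not state whether starts count from 0. RefSeq served for names and chromosomes only, and no sequence was used here. Alternatives were a fold threshold of 1.5, pseudocounts of 1 and 0.1, filters at 1 and 10 FPKM, subunits alone and centring on the median. Genes of mitochondrial DNA were also left out, and 1 row per symbol was kept. The scripts were tested on simulated data and used matplotlib 3.10.9, scipy 1.17.1, pandas 2.3.3, numpy 2.4.6 and Python 3.11.15.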

Additional observations from a re-analysis of the deposited data

How the results depend on the processing

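Of 178 values recomputed under the alternatives, 160 stayed close to the value given, 16 moved further and 2 changed sign, both of them medians of the chain subunits after centring. Counts were called close within a ratio of 1.5, and shares and most medians within an interval taken over genes, which are not replicates. Close and further were judged without the spread between libraries, which is unknown, so these counts are descriptive. The filter at 1 FPKM, leaving out genes of mitochondrial DNA and keeping 1 row per symbol removed no member, so no value could change. The filter at 10 FPKM removed no mitoribosomal gene or chain subunit, and in D17 neither did leaving out uncertain spans. A pseudocount cannot change whether a gene is higher or lower. Such values are among the 160 and say nothing about stability. At a fold above 1.5 the members past the threshold numbered 7 in D17 (1 at 2-fold), 1 in HMPOS (0 at 2-fold) and 31 in HMPOS against POS (15 at 2-fold). With the median of all listed genes subtracted, D17 had 5 members above and 26 below (16.1% above), a median of -0.81 and 6 past 2-fold, HMPOS had a median of -1.53 and 1 past 2-fold, and HMPOS against POS had 43 above and 19 below and a median of 0.69. The mitoribosome then had 0 above and a median of -0.86 in D17, and a median of 0.85 in HMPOS against POS. The chain subunits had 3 above, 5 below and a median of -0.034 in D17 (0.35 uncentred), and a median of 0.038 in HMPOS against POS (-0.27 uncentred). With subunits alone 0 members remained in HMPOS. Leaving out members with uncertain spans, or those on chromosomes 29 and 34, was chosen after seeing the data. Recomputing the alternatives for the mitoribosome and the chain apart was too. Without uncertain spans, HMPOS against POS had 21 mitoribosomal genes higher and 3 lower, and 10 chain subunits higher and 12 lower. Without these chromosomes it had 19 and 3, and 11 and 13. The medians of all members, of the mitoribosome and of the chain kept their sign in each case. No paired analysis was possible because each group has 1 pooled value per gene. For the same reason leaving out a replicate and count tests were not run. The missing spread between libraries limits every comparison, and genes that are not listed have no direction.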

Other observations

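Among members listed in the same table, 4 pairs lay within 250 kb of each other, and in 2 of them both genes had ratios of the same sign. MRPL46 and MRPS11 on chromosome 3, one gene from each mitoribosomal subunit, are 300 bases apart and had log2 ratios of 0.41 and 0.32 between HMPOS and POS. In the pairs with opposite signs, MRPL39 and ATP5PF on chromosome 31, at 96334 bases, were at 0.47 and -0.37 between HMPOS and POS, and NDUFS7 and ATP5F1D on chromosome 20, at 99272 bases, were at 0.41 and -0.32 in D17.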
